A study of Mus musculus with 8 samples.

Results

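The genes described here are 10 genes of mRNA decapping and processing bodies (P-bodies): Dcp1a, Dcp1b, Dcp2, Edc3, Edc4, Ddx6, Xrn1, Lsm14a, Eif4enif1 and Patl1. They were chosen by name, and all non-control probes that carry one of these names in the scanner files were taken. This gave 11 probes, 2 of them for Dcp1b, from an array with 34821 gene names and 55681 probes. All 11 were well above background on all 8 arrays and passed the filter on dim probes, as did 37807 probes in all. The arrays profiled whole testes of C57BL/6 mice at 26 and 17 days postpartum (dpp), as 4 groups of 2 arrays, which the labels call biological replicates: Ip6k1-/- (KO) and Ip6k1+/+ (WT) at 26 dpp, and KO and WT at 17 dpp. KO and WT mice were littermates from heterozygous parents, so the mutation was inherited and not limited to one cell type of the testis. Ip6k1 is the gene of an inositol hexakisphosphate kinase, an enzyme whose product is the pyrophosphate form of that inositol. The part of it that the KO allele removes is not given in the sources used here.

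A capped mRNA that has lost its poly(A) tail is decapped by a complex of the catalytic subunit DCP2 and its activator DCP1, which mammals make from a pair of genes, Dcp1a and Dcp1b. EDC3 and EDC4 hold this complex together and raise its activity, PATL1 and the RNA helicase DDX6 bring target mRNAs to it, and the exonuclease XRN1 degrades the decapped RNA from its 5′ end. These proteins collect in P-bodies, cytoplasmic granules that also hold the translational repressors LSM14A and EIF4ENIF1 (also called 4E-T). In the testis, round spermatids carry a related granule, the chromatoid body, and store many mRNAs untranslated for later use. IP6K1 itself has been linked to P-body formation in cultured mammalian cells.

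Dcp1b was the only one of these genes that passed as higher with age in WT. Its 2 probes were 4.88- and 5.04-fold brighter in WT testes at 26 dpp than at 17 dpp (n = 2 each). Dcp2, Patl1 and Lsm14a fell 3.22-, 3.47- and 2.61-fold, and the other 6 genes did not pass the test (limma, adjusted p under 0.05). Of all probes, 43.4% passed across age in WT. In KO testes Dcp1b rose and Dcp2 fell as well, where 14.6% of all probes passed. Between KO and WT none of the 10 genes passed at either age. Among all probes, 0.00794% passed between KO and WT at 26 dpp and 0.0741% at 17 dpp. The array of KO replicate 2 at 26 dpp stood apart from the other 26 dpp arrays. Without it the KO minus WT difference at 26 dpp was 0.32 in place of 1.11 for Patl1 and 0.04 in place of 0.65 for Lsm14a.

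Values are log2 of the processed signal relative to the 75th percentile of the same array, so a value of 0 is a spot as bright as that percentile. They compare one probe between arrays, not one gene with another. The 75th percentile signal was 480 to 691 at 26 dpp and 468 to 519 at 17 dpp, and 58.8% to 64.6% of probes per array were well above background. KO replicate 2 at 26 dpp correlated at 0.867 with its partner across probes and at 0.918 to 0.946 with the 17 dpp arrays, against 0.987 between the WT arrays at 26 dpp. Its 11 round spermatid markers summed to 5.79 (linear signal relative to the percentile), against 121 in KO replicate 1 and 104 and 157 in WT at 26 dpp, and 1.76 to 1.95 at 17 dpp. Its 10 elongating spermatid markers summed to 0.669, against 845 in KO replicate 1 and 563 and 1570 in WT at 26 dpp. Epididymis markers (7 of 8 measured) summed to 19.5 and 61.6 in WT at 17 dpp and to 0.036 to 0.115 on the other 6 arrays, where at most 2 of the 7 were well above background. Adipocyte markers (4 of 5 measured) summed to 1.03 and 1.39 in KO at 17 dpp, against 3.98 and 213 in WT. At 26 dpp they summed to 2.02 and 1.7 in KO, against 25.9 and 5.6 in WT. All arrays came from 1 slide and 1 scan, with the 26 dpp arrays in one slide column and the 17 dpp arrays in the other, so age and slide column cannot be told apart. All KO arrays lay in slide rows 3 and 4 and all WT arrays in rows 1 and 2, so genotype and slide row cannot be told apart either. The Ip6k1 probe read 1.41 and 1.31 in KO against 2.79 and 2.77 in WT at 26 dpp, and 1.37 and 1.5 in KO against 2.20 and 2.30 in WT at 17 dpp. The KO minus WT difference of −1.42 at 26 dpp and −0.82 at 17 dpp separated all KO from all WT arrays but did not pass in limma (adjusted p = 0.504 and 1). Whether that probe lies in the deleted part is not known, so it is an incomplete check of the labels.

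**Figure D1:**
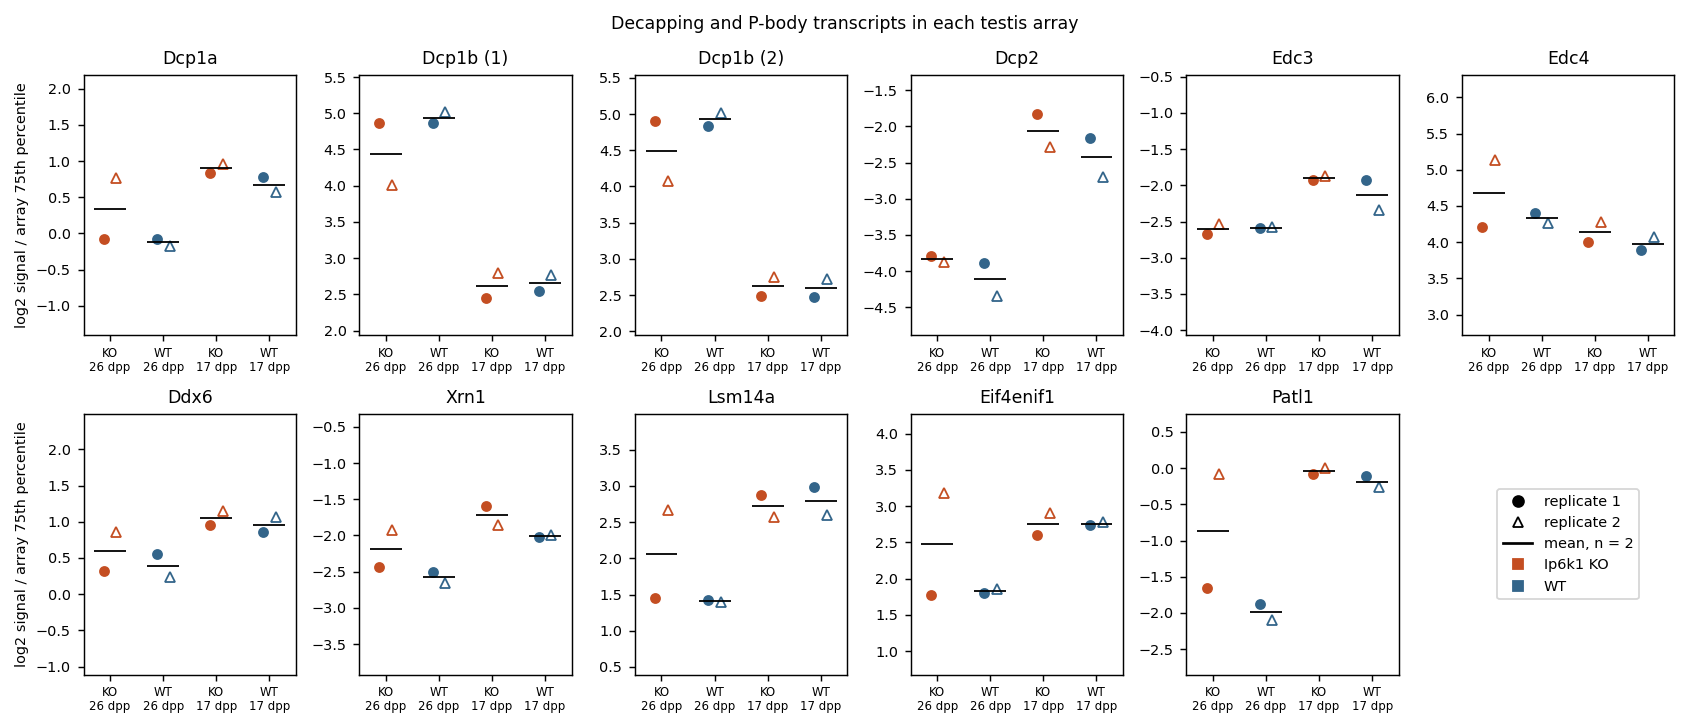
Level of each probe in each of the 8 arrays, as log2 signal relative to the array's 75th percentile (vertical axis, the same span of 3.6 units in each panel), by group. Circles are replicate 1, open triangles replicate 2 and bars the mean of 2. Dcp1b (1) and (2) are its overlapping probes. The 26 dpp KO triangle sits near the 17 dpp arrays for Dcp1a, Xrn1, Ddx6, Lsm14a and Patl1, and near the 26 dpp arrays for Dcp2 and Edc3.

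Dcp1b was read by 2 probes on chromosome 6 of mm9, at 119170144 to 119170203 and 119170153 to 119170212 on the plus strand. They share 51 of 60 bases, so they are one measurement made on nearly the same stretch, not independent support. The first bases of both probes are shown so that the overlap can be seen, with the shared part in capitals.
Dcp1b (2): tcatgtgaaCTGGTGTGACCAAACACACTT
Dcp1b (1): CTGGTGTGACCAAACACACTT

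At 26 dpp, Dcp1b (1) read 4.86 and 4.01 in KO and 4.86 and 5.02 in WT. At 17 dpp it read 2.45 and 2.79 in KO and 2.55 and 2.76 in WT. Each of the 26 dpp arrays lay above each of the 17 dpp arrays, and within an age the KO and WT values overlapped. In WT the rise was 2.29 (SE 0.347, limma adjusted p = 0.0096), or 4.88-fold, and the second probe gave 2.33 (SE 0.344, adjusted p = 0.0091), or 5.04-fold. In KO the rise was 1.81 (adjusted p = 0.028) and 1.87 (adjusted p = 0.0264), or 3.51- and 3.66-fold. Over all alternatives the adjusted p of the second probe ran from 0.000154 to 0.083 in WT and from 0.00209 to 0.196 in KO. KO replicate 2 at 26 dpp lay between the ages: its 2 probes had covered 59.3% and 63.2% of the distance from the WT mean at 17 dpp to that at 26 dpp.

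Dcp1a, the other gene for the decapping activator, ran the opposite way without passing (probe on chromosome 14, 31339843 to 31339902, plus strand). It read −0.08 and 0.76 in KO and −0.07 and −0.17 in WT at 26 dpp. At 17 dpp it read 0.84 and 0.96 in KO and 0.78 and 0.57 in WT. Both WT values at 26 dpp lay below both at 17 dpp, with a difference of −0.79 (SE 0.332, limma adjusted p = 0.0946). Without KO replicate 2 at 26 dpp, which gives the fit a smaller spread, the same WT difference passed (adjusted p = 0.00986). In KO replicate 2 at 26 dpp Dcp1a was within the range of the 17 dpp arrays.

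The 250 bases upstream of the RefSeq gene starts of this pair are shown because the genes differed in direction (GRCm38.p6, plus strand). Dcp1b lies at chr6:119175003-119175252 and Dcp1a at chr14:30479315-30479564. The capitals mark a match to a loose pattern of the X-box, the binding motif of RFX transcription factors.
Dcp1b upstream: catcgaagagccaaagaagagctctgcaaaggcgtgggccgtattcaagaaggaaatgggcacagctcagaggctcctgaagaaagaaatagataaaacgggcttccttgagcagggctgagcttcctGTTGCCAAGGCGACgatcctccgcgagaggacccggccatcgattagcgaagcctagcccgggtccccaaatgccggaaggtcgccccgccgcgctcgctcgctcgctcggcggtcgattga
Dcp1a upstream: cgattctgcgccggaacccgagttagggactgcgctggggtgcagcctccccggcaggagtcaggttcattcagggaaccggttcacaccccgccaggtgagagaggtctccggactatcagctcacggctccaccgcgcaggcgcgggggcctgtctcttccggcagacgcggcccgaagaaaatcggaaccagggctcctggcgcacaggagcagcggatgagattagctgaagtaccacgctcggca
The Dcp1b window holds GTTGCCAAGGCGAC, 108 bases before the start. The letters searched were GTTGCC, any 2 bases, GG, any 2 bases and AC, on both strands, picked after this sequence had been seen, and 196 of 32851 upstream windows of the same length (0.597%) hold a match. Its first 6 letters, GTTGCC, which lie inside the longer motif, occur in 10.4% of windows. Of the 8 genes with an upstream entry in the RefSeq table, Dcp1b alone held the long match. Also searched on both strands were CACGTG (an E-box, in 6.02% of all windows) and TATAAA (12.4%), which none of the 8 held, and TGACG (the core of a CRE, 17.8%), CCAAT (33.8%) and GGGCGG (a GC box, 32.7%), none of which was in the Dcp1b or the Dcp1a window. A match is a description of the letters and not of binding.

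Dcp2, the catalytic subunit, fell in both genotypes (chromosome 18, 44577986 to 44578045, plus strand). At 26 dpp it read −3.79 and −3.88 in KO and −3.89 and −4.34 in WT. At 17 dpp it read −1.83 and −2.29 in KO and −2.16 and −2.70 in WT. The ages did not overlap in either genotype. The WT fall was −1.69 (SE 0.323, limma adjusted p = 0.0149), or 3.22-fold, and the KO fall −1.78 (SE 0.323, adjusted p = 0.0258), or 3.43-fold. In processed signal the probe read 49.9 and 32.5 in KO and 43.0 and 32.8 in WT at 26 dpp, against 146 and 96.0 in KO and 114 and 77.4 in WT at 17 dpp. The size depended on the background correction: with normexp the WT difference was −1.01 and the KO difference −1.08, and both still passed. On this gene KO replicate 2 at 26 dpp lay 0.09 below its partner. The adjusted p of the WT fall ran from 0.00125 to 0.109 over all alternatives.

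The decapping enhancers moved less. Edc3 (chromosome 9, 57597241 to 57597300, plus strand) read −2.67 and −2.53 in KO and −2.59 and −2.58 in WT at 26 dpp, and −1.93 and −1.87 in KO and −1.92 and −2.34 in WT at 17 dpp. All 26 dpp arrays lay below all 17 dpp arrays, and the WT difference of −0.45 did not pass (SE 0.251, adjusted p = 0.173). Edc4 (chromosome 8, 108416994 to 108417053, plus strand) read 4.21 and 5.14 in KO and 4.40 and 4.27 in WT at 26 dpp, and 4 and 4.28 in KO and 3.89 and 4.07 in WT at 17 dpp. Its WT difference was 0.36 (SE 0.358, adjusted p = 0.421). For Edc4, KO replicate 2 at 26 dpp was above every other array of either age, so it resembled neither the 17 nor the 26 dpp arrays.

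Patl1, the scaffold that binds mRNA and the decapping complex, had the widest replicate gap (chromosome 19, 12019128 to 12019187, plus strand). The first 30 bases of its probe, shown because this probe gave the widest KO minus WT difference among the members, are:
Patl1: aagagaataaacgttttgcacatacatgta
At 26 dpp it read −1.66 and −0.08 in KO and −1.87 and −2.10 in WT. At 17 dpp it read −0.08 and 0.00 in KO and −0.11 and −0.26 in WT. WT fell by 1.79 on the log2 scale (SE 0.506, limma adjusted p = 0.0347), or 3.47-fold. The adjusted p of this fall ran from 0.00037 to 0.161 over all alternatives. The KO difference of −0.83 did not pass (SE 0.506, adjusted p = 0.277). KO replicate 2 at 26 dpp lay 1.58 above its partner, at the level of 17 dpp testes, while replicate 1 lay near WT of its own age.

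Ddx6, the RNA helicase of P-bodies (chromosome 9, 44446368 to 44446427, plus strand), read 0.32 and 0.86 in KO and 0.56 and 0.23 in WT at 26 dpp, and 0.96 and 1.15 in KO and 0.86 and 1.06 in WT at 17 dpp. The WT difference was −0.56 (SE 0.293, limma adjusted p = 0.152), close to the median of all probes. Xrn1, the 5′ to 3′ exonuclease (chromosome 9, 95946013 to 95946072, plus strand), read −2.44 and −1.93 in KO and −2.51 and −2.65 in WT at 26 dpp, and −1.59 and −1.85 in KO and −2.02 and −1.99 in WT at 17 dpp. Its WT difference was −0.57 (SE 0.275, adjusted p = 0.127). For Xrn1, as for Patl1, both KO arrays lay above both WT arrays at both ages, though neither gene passed at either age. Of all probes, 16.5% lay so at 26 dpp and 16.4% at 17 dpp. The share of all probes that did so at both ages was not counted.

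Of the translational repressors, Lsm14a fell in WT and Eif4enif1 did not pass. Lsm14a (chromosome 7, 35130532 to 35130591, minus strand) read 1.45 and 2.67 in KO and 1.42 and 1.40 in WT at 26 dpp, and 2.88 and 2.57 in KO and 2.99 and 2.60 in WT at 17 dpp. It fell by 1.38 in WT (SE 0.433, limma adjusted p = 0.0445), or 2.61-fold, and the KO difference was −0.66 (adjusted p = 0.306). The WT call was lost in 9 of 20 alternatives, median scaling and no filter among them, with an adjusted p of 0.00119 to 0.188. Eif4enif1 (chromosome 11, 3144458 to 3144517, plus strand), which binds the cap-binding protein eIF4E, read 1.77 and 3.18 in KO and 1.8 and 1.86 in WT at 26 dpp. At 17 dpp it read 2.60 and 2.91 in KO and 2.74 and 2.78 in WT. Its WT difference was −0.93 (SE 0.465, adjusted p = 0.14). The fit shares its spread with the KO arrays, which differed by 1.41 at 26 dpp, and without KO replicate 2 at that age the WT fall passed (adjusted p = 0.00661). The last 30 bases of the Lsm14a probe are shown because they are repetitive, with the longest unbroken run of GT in capitals.
Lsm14a: gcGTGTGTGTGTGTatgtatgtgtgtgtgc
The run is 12 bases long, and 189 of 55681 probes (0.339%) hold at least 10 bases of GT repeat. Signal of this probe from other transcripts with such a repeat was not tested.

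Across age in WT, 5 of the 11 probes passed, 2 higher (both Dcp1b) and 3 lower, against 43.4% of all 37807 probes (17.9% higher and 25.5% lower). At an unadjusted p under 0.05, 5 of the 11 probes passed as well, against 56.2% of all probes. The members' share was thus near that of all probes at the adjusted threshold and below it at the unadjusted one. The groups did not overlap for all 11 probes, against 87.1% of all probes. The median WT difference of the 11 was −0.57 and that of all probes −0.48. Over the scalings tried, the median of all probes ran from −0.55 to −0.25. Relative to that median, Dcp1b lay 2.39 to 2.81 above, Edc4 0.44 to 0.84 above, Dcp2 between −1.26 and −0.64, Patl1 between −1.33 and −1.12, Lsm14a between −1.09 and −0.85 and Eif4enif1 between −0.69 and −0.41. Edc3 (−0.10 to 0.03) and Ddx6 (−0.26 to 0.01) changed side of the median with the scaling. Beside these differences, 10 of 11 round and 10 of 10 elongating spermatid markers passed as higher in WT. Of 10 Sertoli cell markers, 7 passed as lower, and the part of cell composition in the members' differences was not tested. In whole testes, fewer cells of a type and less RNA per cell cannot be told apart. The part of epididymal RNA in WT at 17 dpp was not tested either.

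**Figure D2:**
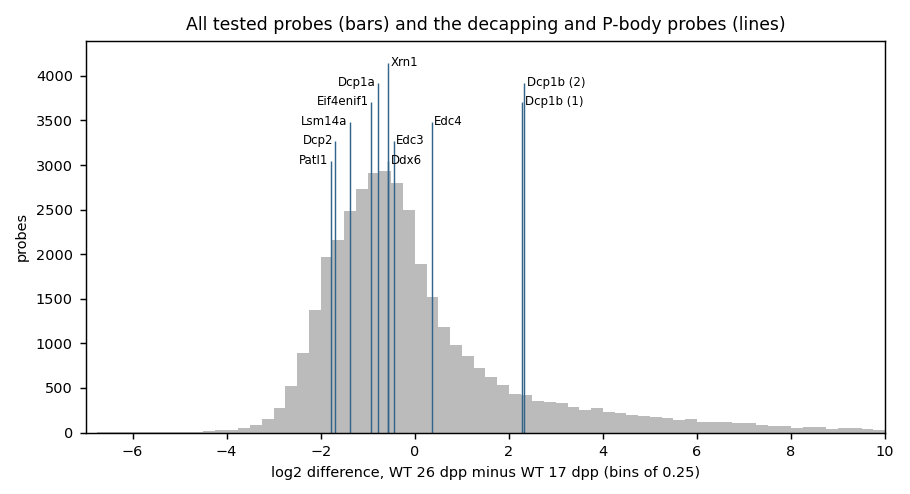
WT 26 dpp minus WT 17 dpp differences (horizontal axis, log2, bins of 0.25) for all tested probes, as bars counting probes, with the 11 decapping and P-body probes as labelled lines. Dcp1b, at 2.29 and 2.33, stands in the right tail at the 86.7th and 86.9th percentile, and Patl1 and Dcp2 at the 13.4th and 15.8th.

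The WT calls depended on which arrays shared the fit. Without either KO array at 26 dpp, 8 probes passed, adding Dcp1a, Xrn1 and Eif4enif1 (25439 probes in all). Without either KO array at 17 dpp, 3 passed, those of Dcp1b and Dcp2 (9579 in all). Without WT replicate 1 or 2 at 26 dpp, or WT replicate 1 or 2 at 17 dpp, none did, with 0, 0, 222 and 88 of all probes passing in limma and 4, 3, 3 and 5 members at an unadjusted p under 0.05. In those fits a lone array is assumed to vary like the other groups.

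In KO, 3 of 11 probes passed across age (both of Dcp1b and Dcp2), against 14.6% of all probes (6.86% higher and 7.72% lower), and 4 did at an unadjusted p under 0.05, against 34.2%. The groups did not overlap for 8 of 11, against 60.1% of all probes, and the median difference was −0.47 against −0.33. Without KO replicate 2 at 26 dpp, 10 of 11 passed (21588 of all probes). The 26 dpp group is then a single array. In that fit Dcp1b rose by 2.24 and 2.29, and Patl1 (−1.62), Lsm14a (−1.27), Dcp1a (−0.98), Eif4enif1 (−0.98), Edc3 (−0.77), Ddx6 (−0.74) and Xrn1 (−0.72) fell with Dcp2 (−1.73). Only Edc4 did not pass there, at 0.07 (adjusted p = 0.79). Without KO replicate 1 at 26 dpp, the Edc4 difference was 1.01. Leaving out a KO array at 26 dpp thus changed the KO differences themselves and not only the spread. For Patl1 the difference was −0.83 with all 8 arrays. The calls changed too, among the members and among all probes. Beside these values, 2 of 11 round and 0 of 10 elongating spermatid markers passed as higher in KO with all 8 arrays. Of 10 Sertoli cell markers, 3 passed as lower. All 11 round and all 10 elongating markers averaged higher, with medians of 4.07 and 5.69, and all 10 Sertoli cell markers averaged lower.

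**Figure D3:**
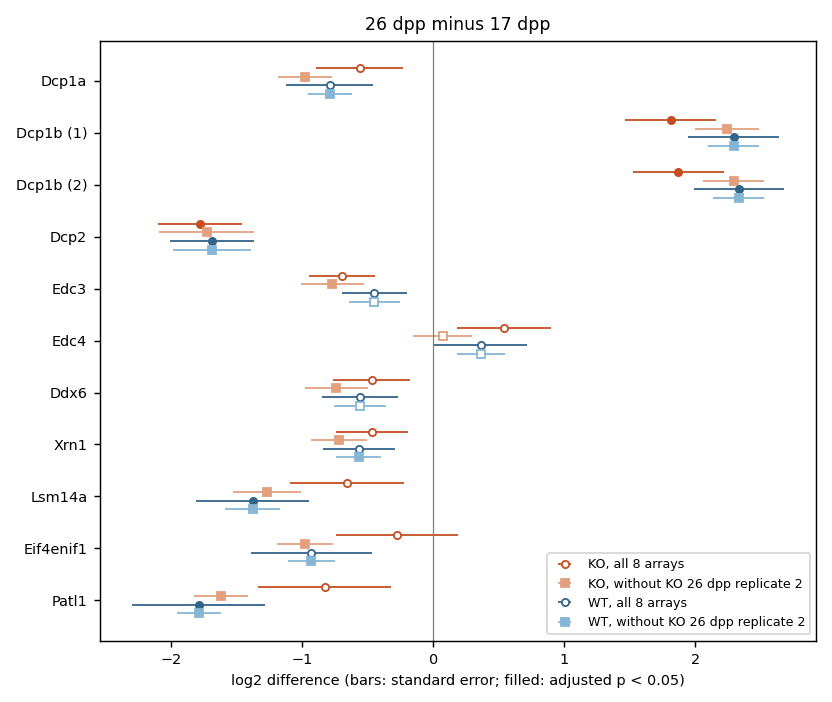
Difference between 26 and 17 dpp (horizontal axis, log2) for each probe in KO and WT, from all 8 arrays (circles) and without KO replicate 2 at 26 dpp (squares). Bars are standard errors, and filled symbols passed an adjusted p of 0.05. Without that array the KO values lie beside the WT values for Patl1 (−1.62 and −1.79) and Lsm14a (−1.27 and −1.38).

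At 26 dpp none of the 11 probes differed between KO and WT past the threshold in limma, and 0 did at an unadjusted p under 0.05, against 0.00794% of all probes called (3 probes) and 2.85% at the unadjusted threshold. Patl1 had the widest difference, 1.11 (SE 0.506, 95% interval −0.12 to 2.35, adjusted p = 0.544), and 4.4% of all probes lay further up. Lsm14a (0.65) and Eif4enif1 (0.64) followed. Dcp1b averaged lower in KO (−0.51 and −0.44), with intervals of −1.35 to 0.34 and −1.27 to 0.40. Both KO arrays lay above both WT arrays for Dcp2, Xrn1, Lsm14a and Patl1, 4 of 11 against 16.5% of all probes higher without overlap, and the median of the 11 was 0.34 against 0.08. Without KO replicate 2 the differences were 0.32 for Patl1, 0.04 for Lsm14a, −0.06 for Eif4enif1, −0.08 and −0.01 for Dcp1b, and 0.33 for Dcp2. Without KO replicate 1 they were 1.91 for Patl1, 1.35 for Eif4enif1, 1.26 for Lsm14a, 0.88 for Dcp1a and 0.80 for Edc4. For the Dcp1b probes they were then −0.93 and −0.86. In both fits the KO group is a single array, with no spread of its own. All 11 round and all 10 elongating spermatid markers averaged lower in KO, with medians of −3.16 and −5.19 set by replicate 2, and none of them passed. All 4 adipocyte markers measured averaged lower in KO at 26 dpp as well, with a median of −2.83. Of 8 Leydig cell markers 7 averaged lower and 1 higher, with a median of −1.71, and none of either list passed. The part of all these markers in the members' values was not tested.

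At 17 dpp the differences were smaller. The 11 probes ran from −0.07 for Lsm14a to 0.37 for Dcp2 (SE 0.323, 95% interval −0.41 to 1.16), and none passed in limma or at an unadjusted p under 0.05, against 0.0741% of all probes called (28 probes) and 1.49% unadjusted. Both KO arrays lay above both WT arrays for Dcp1a (0.23), Xrn1 (0.29) and Patl1 (0.15), 3 of 11 against 16.4% of all probes higher without overlap. The intervals were wide, from −1.08 to 1.38 for Patl1, so a change of 2-fold in either direction was not outside them for that gene. The epididymis and adipocyte markers given above also separated WT from KO at this age, and their part in these values was not tested.

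**Figure D4:**
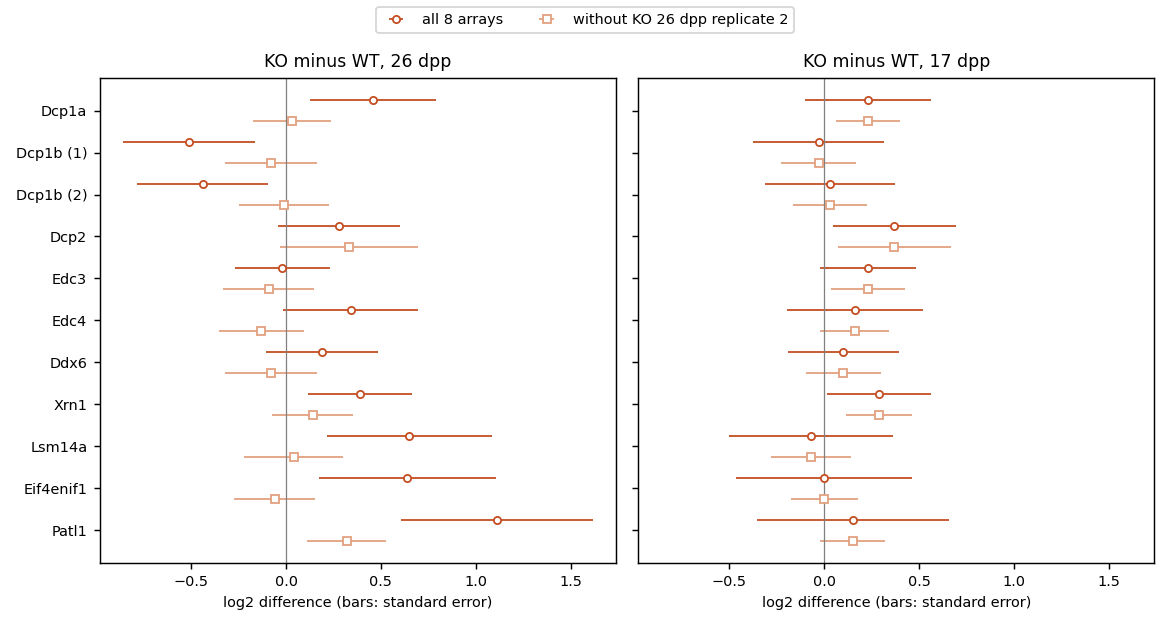
KO minus WT difference (horizontal axis, log2, bars of 1 standard error) at 26 dpp (left) and 17 dpp (right) from all 8 arrays (circles) and without KO replicate 2 at 26 dpp (squares). No probe passed an adjusted p of 0.05. At 26 dpp Patl1 is at 1.11 with that array and at 0.32 without it.

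The KO effect was not shown to differ between the ages. For the difference of the effects (26 minus 17 dpp) none of the 11 probes and 0% of all probes passed in limma, with 0 members and 792 of all probes at an unadjusted p under 0.05. Patl1 gave 0.97 (SE 0.716, adjusted p = 0.792) and Lsm14a 0.72 (SE 0.613, adjusted p = 0.792). Without KO replicate 2 at 26 dpp these were 0.18 and 0.11. Without KO replicate 1 the values were 1.76 for Patl1, 1.35 for Eif4enif1 and 1.33 for Lsm14a. In both fits the KO group at 26 dpp is a single array.

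The members did not all follow one pattern in KO replicate 2 at 26 dpp. Patl1 (−6.2%), Lsm14a (8.57%), Dcp1a (−11.4%), Xrn1 (−13.3%) and Ddx6 (17.3%) were near the WT level of 17 dpp, as percent of the WT age difference covered. Eif4enif1 (−45.7%) lay above every 17 dpp array. Dcp2 (86.2%) and Edc3 (89.1%) were near the 26 dpp level, and Dcp1b was in between. The percentages of Dcp1a, Xrn1, Ddx6, Eif4enif1 and Edc3 rest on WT differences that did not pass. Among all probes with a WT age difference of at least 1 (log2) in either direction, this array lay between the WT means for 71.4%. Of the member probes, those of Dcp1b, Dcp2, Lsm14a and Patl1 had a difference of that size, and all but Patl1 lay between. Over the 8 arrays, Patl1 correlated at 0.98 with Dcp1a, 0.97 with Lsm14a and 0.94 with Eif4enif1 and Xrn1. Dcp1b correlated negatively with 8 of the other 9, from −0.74 with Eif4enif1 to −0.95 with Dcp2. Edc4 correlated with no member beyond 0.58 in size. These correlations describe 8 arrays that share 2 ages and 1 deviating array.

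Genes with a pattern like a member's were sought among 15003 of the 26584 tested genes. These had a current symbol and a brightest probe well above background on all 8 arrays, so genes dim on any array were not searched. The genes most like the members with the widest range of group means were found by Pearson correlation over the 8 arrays. For Dcp1b they included Ppp1r27 (0.9991) and 4933405L10Rik (0.9987), which rose in WT by 4.04 and 5.97. For Dcp2 they were Wdr55 (0.996), Ucp3, a mitochondrial uncoupling protein (0.9944), and Vps13d (0.9932), with WT age differences of −1.06, −1.42 and −1.22. For Patl1 they were Arid1a, a chromatin remodelling subunit (0.9989), Scamp1 (0.9979) and Nelfb, a subunit of the negative elongation factor (0.9975), with WT age differences of −1.23, −1.51 and −1.32.

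Other genes of mRNA decay were measured from 5 lists, 98 genes in all with 1 probe each. In WT, 12 passed as higher with age and 26 as lower, 38.8% against 44.7% of all genes, with a median of −0.52 against −0.46. In the counts of these lists, rose and fell mean passed as higher and as lower. Among 24 deadenylation genes, 2 rose and 4 fell. Angel1, of the CCR4 nuclease family (2.65), and Btg4, an adaptor of the CCR4-NOT deadenylase (2.35), rose, and Btg2 (−2.75) and Tob2 (−1.33), also of the adaptor family, fell. Among 23 cap and decapping cofactors, 1 rose and 10 fell, including the translational repressor Eif4ebp1 (−2.04), the nuclear exonuclease Xrn2 (−1.77), the LSM ring subunit Lsm5 (−1.75) and the eIF4E relative Eif4e3 (−1.37). The median of that list was −0.87.

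Of 19 microRNA and AU-rich silencing genes, 2 rose and 8 fell. Ybx2, a germ cell protein that binds stored mRNAs, rose by 2.96, and Zfp36l2 (−2.21), Cpeb1 (−1.99) and Dicer1 (−1.98) fell. In nonsense-mediated decay, Smg9 (2.40), Upf3a (2.32) and Smg5 (1.39) rose and Upf3b (−1.98) fell, of 14 genes. Of 18 exosome and Ski complex genes 4 rose, among them the exosome nuclease Dis3l (3.25), Exosc3 (2.19) and Exosc5 (1.76), and 3 fell, among them Exosc8 (−1.82). Adjusted p-values of the genes named from these lists were 0.00742 to 0.0453 in limma. In KO, 8 rose and 2 fell, 10.2% against 15% of all genes: Dis3l (3.12), Ybx2 (2.51), Btg4 (2.26), Angel1 (2.09), Smg9 (2.03), Upf3a (1.93), Exosc3 (1.52) and Smg5 (1.01) rose, and Mov10, an RNA helicase (−1.63), and Eif4e1b, a germ cell eIF4E (−1.57), fell. With all 8 arrays no gene of the 5 lists passed between KO and WT at 26 or at 17 dpp in limma, against 0.00752% and 0.094% of all genes.

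The counts of these lists moved with single arrays as the members' did. Where a KO array at 26 dpp is left out, the KO group of that age is a single array. Without KO replicate 2 at 26 dpp, 18 rose and 48 fell in WT (67.3% of all probes passing) and 13 rose and 46 fell in KO (57.1%). Without KO replicate 1 at 26 dpp, they were 18 and 48 in WT and 10 and 3 in KO. In that fit 46 were higher and 5 lower in KO than in WT at 26 dpp, when 16239 of 37807 probes passed (9569 higher), and 34 were higher and 2 lower for the difference of KO effects, when 11445 passed (6414 higher). Without either KO array at 17 dpp, 10 rose and 9 fell in WT. In KO, 2 rose without replicate 2 at 17 dpp and 0 without replicate 1. Without any one WT array none passed in either genotype.

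**Figure D5:**
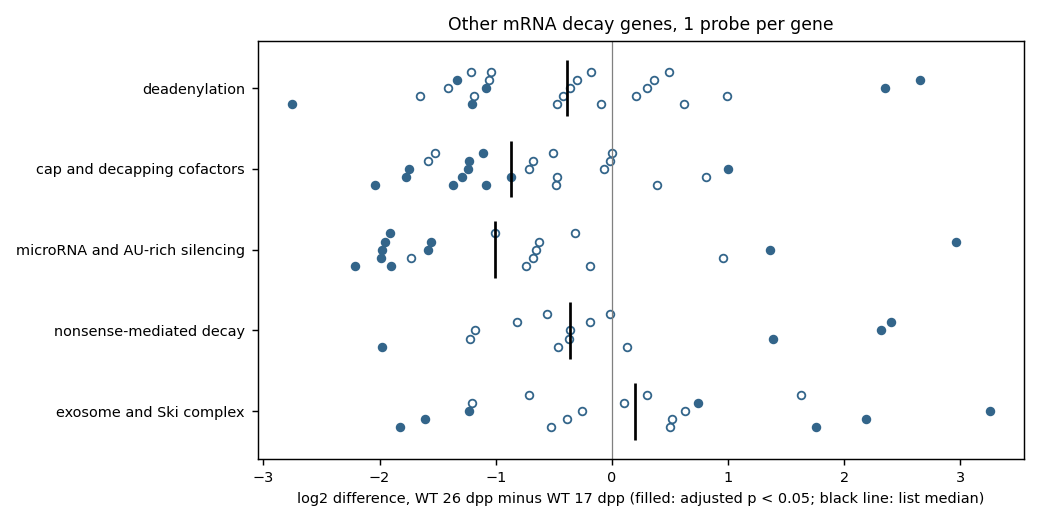
WT 26 dpp minus WT 17 dpp difference (horizontal axis, log2) of each of the 98 other mRNA decay genes, 1 point per gene, by list. Filled points passed an adjusted p of 0.05 and the black line is the list's median, −1.01 for microRNA and AU-rich silencing and 0.20 for the exosome and Ski complex.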

How the data were processed

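Each sample was hybridised to 1 Agilent 1-colour array (Cy3). Per the file headers, images were read with Agilent Feature Extraction 11.5.1.1, and the processed signal, mean signal and background signal are deposited as intensity per spot, unscaled between arrays. The authors' value table holds deposited log2 values. Each column followed log2 of the processed signal of its array with a correlation of at least 0.999906 and column medians of −3.84 to −3.59. How spots were combined in it is unknown, and a 1-colour value has no direction.

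Here control and outlier spots were left out, log2 of the processed signal was set relative to the array's 75th percentile, and spots of a probe were averaged. Probes that the scanner marked well above background throughout 1 or more groups entered the tests. limma 3.58.1 (R 4.3.3) fitted 1 mean per group over all 8 arrays (4 residual degrees of freedom, prior 2.17), two-sided, with Benjamini-Hochberg adjustment over 37807 probes and a threshold of 0.05. With n = 2 the precision is limited by the number of arrays. The labels call the replicates biological.

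All member probes are named. From each decay list, at most 4 genes past the threshold with the widest differences are named per comparison, and for 3 members the 3 genes most like them, of which 1 is not reported here. A gene outside the members is represented by its brightest kept probe, with older and current symbols of a listed gene merged through RefSeq. Members and lists were chosen with earlier results of these data known. Alternatives were other background corrections, scalings, filters, variance models, sample sets, a replicate block and leaving out arrays. Probe coordinates are those of the files (mm9), and exons and UTRs were not assigned. Upstream sequences are from RefSeq (8 of 10 genes matched). Dcp2 sequence is not shown.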

Additional observations from a re-analysis of the deposited data

How the results depend on the processing

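Directions of the 5 probes that passed in WT across age were kept under every setting run, and their calls were lost in some. In WT across age, 5 member probes passed (16399 of all probes), against 9 with array weights (27539). With the 4 arrays compared alone 8 passed (25864), and with a replicate block 3 did (12341). In KO across age, 3 passed of the members and 5510 of all probes, against 0 and 67 with array weights, 0 and 0 with the arrays compared alone (7456 of all probes at an unadjusted p under 0.05), and 1 and 1611 with the replicate block. Between KO and WT at 26 dpp the 3 calls among all probes became 10 with median scaling, 5 with quantile normalization and 0 with normexp under either scaling, array weights, a variance trend, no filter, all-array detection, the arrays compared alone or the replicate block (357 to 1797 at an unadjusted p under 0.05). At 17 dpp the 28 calls became 52 with array weights, 12 without a filter, 7 with a variance trend, 2 and 1 with normexp before percentile and quantile scaling, 1 with the replicate block, and 0 with all-array detection or the arrays compared alone (182 and 1451 unadjusted). Member counts stayed at 0 there in all of these. For the difference of KO effects the groups compared are all 8 arrays, so this setting adds nothing. The cause of these changes was not tested.

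Leaving out 1 array in turn gave 0 to 8 member probes in WT across age (0 to 25439 of all probes), 0 to 10 in KO (0 to 21588), 0 to 7 between KO and WT at 26 dpp (0 to 16239), 0 at 17 dpp (0 to 32) and 0 to 3 for the difference of effects (0 to 11445).

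Some values reversed. At 17 dpp Eif4enif1 was 0.01 with normexp and the percentile and with the deposited table. At 26 dpp Edc3 was 0.01 with normexp and quantile scaling, 0.12 with quantile normalization and 0.01 with the deposited table. The difference of effects for Dcp2 was 0.06 with quantile normalization. Without single arrays, KO minus WT at 17 dpp ran from −0.20 to 0.13 and −0.10 to 0.15 for Dcp1b, 0 to 0.20 for Ddx6, −0.16 to 0.15 for Eif4enif1 and −0.26 to 0.12 for Lsm14a. At 26 dpp it ran from −0.08 to 0.46 for Ddx6, −0.09 to 0.05 for Edc3, −0.13 to 0.80 for Edc4 and −0.06 to 1.35 for Eif4enif1, whose KO age difference ran from −0.98 to 0.43. The difference of effects ran from −0.19 to 0.65 for Dcp1a, −0.36 to 0.17 for Dcp2, −0.18 to 0.37 for Ddx6, −0.29 to 0.65 for Edc4, −0.06 to 1.35 for Eif4enif1 and −0.15 to 0.36 for Xrn1.

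Replicate numbers do not mark shared animals, and deviations of arrays with the same number correlated at −0.37 to 0.11, so the replicate block rests on the numbers alone. All members were well above background on every array, but Dcp2 read only 32.53 to 146.1 in processed signal, and its size depended on the background correction.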

Other observations

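Genes with the loose X-box pattern in their upstream window were counted across age in WT, as a description made after the match at Dcp1b had been seen. Of 141 such genes measured, Dcp1b among them, 56 passed as higher (39.7%) and 19 as lower (13.5%), with a median difference of 0.68. Of 14252 measured genes with an upstream entry, 21.1% passed as higher and 28.6% as lower, with a median of −0.48. The pattern was taken from a gene that rose in these data, and whether RFX factors act on any of these genes was not tested.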
